A study of Mus musculus with 4 samples.

Results

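Replication-dependent histone genes supply the histones that wrap newly copied DNA. They were taken here as all genes whose symbol starts with Hist1h, Hist2h, Hist3h or Hist4h and that held at least 100 UMIs (unique molecular identifiers, each counting 1 captured RNA molecule) in the matrix of all cells. Of 32285 genes in the matrix 67 had such a symbol, and 61 of them reached 100 UMIs. The members comprised 5 genes of the linker histone H1, 16 of H2A, 16 of H2B, 11 of H3 and 13 of H4, with 2324852 UMIs in all. The 6 symbols left out were Hist1h2ba with 0 UMIs, Hist2h2aa2 and Hist1h2bq with 1 each, Hist1h2aa with 5, Hist1h1t with 63 and Hist1h3h with 97. The members closest to the limit were Hist1h2ao with 209 UMIs, Hist1h2ah with 246 and Hist2h3c2 with 247.

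The data were droplet-based single-cell RNA-seq of mouse haematopoietic stem and progenitor cells (HSPCs), made with a 10x Genomics 3′ kit. C57BL/6 donor HSPCs carrying the CD45.2 form of the leukocyte surface protein CD45 were either WT or heterozygous mutant for Srcap, a chromatin remodeller that places the histone variant H2A.Z. They were sorted from bone marrow 20 weeks after competitive transplantation, with 20000 cells taken per sample, and there were 2 WT and 2 Srcap mutant samples. All groups were donor cells that had passed through transplantation, so no cells from an animal without a transplant were part of the design. The matrix held the 4 libraries under barcode suffixes that no label ties to a sample. Libraries 1 to 4 were therefore described separately, WT and mutant were not compared, and no p-values were computed.

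Core histones H2A, H2B, H3 and H4 form the nucleosome, and H1 binds the linker DNA between nucleosomes. Dividing cells transcribe these genes in S phase through clusters of many near-identical copies, switched on by the cyclin E and CDK2 target NPAT. Their mRNAs end in a conserved stem-loop bound by SLBP, in place of a poly(A) tail, and are degraded when replication stops. Some copies also carry a downstream polyadenylation signal, and those transcripts can be made in cells that do not divide. Because the 3′ kit primes on poly(A), a UMI count of a histone gene reports only the molecules that could be primed, and levels were therefore compared within a gene across gates.

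By GENCODE M21 (mouse build GRCm38), 49 of the 61 members lie on chromosome 13, 9 on chromosome 3, 2 on chromosome 11 and 1 on chromosome 6. A stem-loop was found in the annotated 3′ end of 44 members. The stems below are in capitals and the loop is in lower case, written 5′ to 3′ as DNA. They are shown because this hairpin replaces the poly(A) tail.
Found in 25 members, among them Hist1h1c, Hist1h1e, Hist1h2ac, Hist3h2a and Hist1h2ap: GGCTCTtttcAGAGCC
Found in 7 members, among them Hist1h4d, Hist1h4h and Hist4h4: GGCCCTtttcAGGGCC
Found in 5 members, among them Hist1h3c: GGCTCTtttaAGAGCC
Found in Hist1h4i and 1 more member: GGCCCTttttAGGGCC
Found in Hist1h4a alone: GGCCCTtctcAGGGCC
In 22 of the 44 members the annotated transcript ran on for more than 100 bases after the stem-loop, and in 16 of the 44 a polyadenylation signal, spelled AATAAA and also searched for as ATTAAA, followed it. The stretch after the stem-loop was 4884 bases in Hist1h1d, 2445 in Hist4h4, 2010 in Hist1h2ac, 1861 in Hist1h2be, 1643 in Hist3h2a, 1153 in Hist1h1e, 840 in Hist1h1c and 770 in Hist1h4d. It was 3 bases in Hist1h2ap, 11 in Hist1h2ab, 23 in Hist1h2bj and 74 in Hist1h3c. Hist1h2bc, an H2B gene, has an annotated coding transcript of 2 exons with a 742-base 3′ untranslated end and no stem-loop in it.

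Promoters of 56 members were matched in RefSeq's promoter table (GRCm38.p6, 250 bases before to 50 after the start), with Hist1h2bc, Hist1h3a, Hist1h3f, Hist2h2be and Hist2h4 unmatched. The 100 bases before the start are printed for 5 members, with matches on either strand to the motifs TATAAA (the TATA box), CCAAT (the site of NF-Y) and ATTTGCAT (the octamer) in capitals. They are shown because the results below turn on these members: Hist1h1b had the highest ratio of S to resting cells, Hist1h1a and Hist1h4a fell most from S to G2 to G2/M cells, and Hist1h2ac and Hist3h2a had a lower CPM in S than in resting cells.
Hist1h1b, chr13:21780626-21780725, minus strand: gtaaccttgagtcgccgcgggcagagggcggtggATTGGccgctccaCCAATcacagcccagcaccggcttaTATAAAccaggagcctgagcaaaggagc
Hist1h1a, chr13:23763568-23763667, plus strand: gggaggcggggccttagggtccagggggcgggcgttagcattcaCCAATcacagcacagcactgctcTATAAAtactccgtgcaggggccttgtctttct
Hist1h4a, chr13:23761250-23761349, minus strand: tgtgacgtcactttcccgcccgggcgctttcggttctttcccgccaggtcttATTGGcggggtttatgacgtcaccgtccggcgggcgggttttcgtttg
Hist1h2ac, chr13:23683960-23684059, minus strand: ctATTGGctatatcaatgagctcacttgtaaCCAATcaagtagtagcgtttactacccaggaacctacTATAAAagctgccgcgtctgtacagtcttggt
Hist3h2a, chr11:58954585-58954684, plus strand: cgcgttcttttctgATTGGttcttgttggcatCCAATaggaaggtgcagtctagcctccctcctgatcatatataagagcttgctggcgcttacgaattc
Over the whole 300-base windows, searched on both strands, CCAAT was found in 47 of 56 members against 37.9% of 27025 promoters. It was in every matched H1, H2A, H2B and H3 promoter, and in 3 of 12 H4 promoters. TATAAA was found in 32 of 56 members against 14.2% of all promoters, and the octamer ATTTGCAT in 12 of 56 against 1.75%, 6 of them H2A and 6 H2B genes. AAACACA, a sequence known from H1 promoters, was found in 4 of 5 H1 members, 1 H2A and 1 H2B member against 7.14% of all promoters. TTTCGCGC was found in 9 members against 0.318%, and TTTGGCGC in none against 0.537%. These matches describe letters in the windows and not binding.

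Of 44151 barcodes, 39118 cells entered the analysis, 8664 to 11761 per library. Each cell was thinned to 5000 UMIs and gated by the UMIs of 40 S phase genes and 36 G2/M genes, lists that hold no member. A cell with at most 6 UMIs of each list was called resting. A cell with at least 15 UMIs of the S list was placed in the S gate or, where it also had at least 15 of the G2/M list, in the S to G2 gate. A cell with at least 15 UMIs of the G2/M list and fewer than 15 of the S list was placed in the G2/M gate, and 13.45% of cells fell between gates. The gates held 13761, 9353, 6370 and 4371 cells in that order. They rest on RNA of gene lists, as DNA content was not measured, and gate names refer to these lists. Each gate pools all cell types, and the make-up by type differed between gates, as given below. The part of cell type in the differences between gates was not tested. Levels are given as CPM, the UMIs of a gene per 1000000 UMIs of all cells of a gate in a library, and differences as log2 ratios of CPM + 1 within a library. A gene was called higher or lower where all 4 libraries passed a 2-fold difference in 1 direction, among genes with a mean of at least 5 CPM over the gates compared.

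Histone RNA was high in cells that carried S and G2/M genes together and low in most cells of the S gate. The 61 members summed to 950.0, 936, 745 and 747 CPM in resting cells of libraries 1 to 4. The same sum was 2228, 1748, 1597 and 1887 CPM in the S gate, 14270, 13290, 9478 and 11540 CPM in the S to G2 gate and 7453, 7095, 4919 and 5804 CPM in the G2/M gate. No library of one gate overlapped a library of another, and within each library the order was resting, S, G2/M, S to G2.

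Inside the S gate the level differed with the G2/M genes. With 0 to 2 UMIs of the G2/M list the sum was 663, 660.5, 460.5 and 533 CPM, below that of the same library's resting cells in all 4 libraries. Per 100 cells it was not lower, with a median of 718.3 UMIs (range 573.3 to 758.3) against 686.4 (621.3 to 730.3) in resting cells. At 3 to 7 it was 926, 829.9, 719.6 and 909 CPM, and at 8 to 14 it was 5511, 3974, 3897 and 4363 CPM. The S to G2 gate continued this order, with 13180, 11500, 8492 and 10180 CPM at 15 to 29 UMIs and 15230, 14660, 10650 and 12820 CPM at 30 or more. Cells with S genes but almost no G2/M genes thus held no more histone RNA per UMI than resting cells, and the level then climbed with every step of the G2/M list. Whether cells of the S gate had begun to copy DNA was not measured. Bins of the G2/M list rank cells by RNA counts and not by time.

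**Figure D1:**
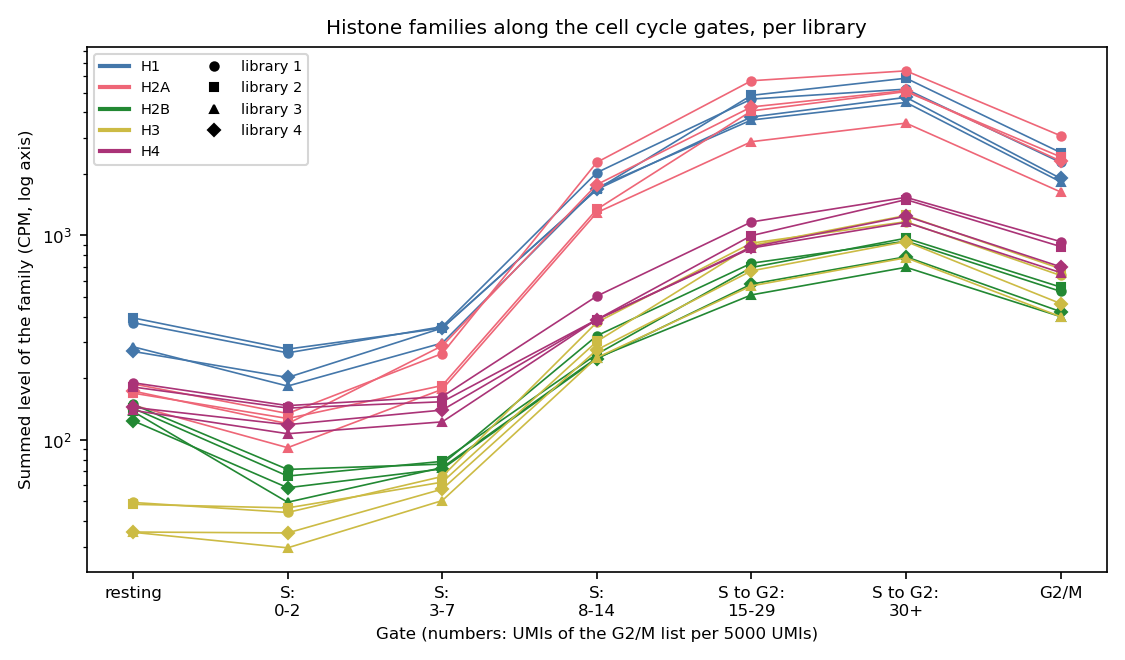
Summed CPM (log axis) of the 5 histone families along 7 gates ordered by the S and G2/M lists, 1 line per family and library; numbers under S and S to G2 are UMIs of the G2/M list per 5000 UMIs. All 20 lines peak at S to G2 with 30 or more G2/M-list UMIs, where the members together reach 10650 to 15230 CPM.

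H1 and H2A supplied most of the captured histone RNA. H1 genes summed to a median of 329.5 CPM over libraries in resting cells and 4613 CPM in the S to G2 gate, which was 38.8% and 39.0% of the members' UMIs. H2A genes went from 171.1 to 4664 CPM, and their share of the members' UMIs from 19.8% to 37.8%. H2B genes went from 140.1 to 762.9 CPM and H4 genes from 162.6 to 1173 CPM, so that their shares were smaller in the S to G2 gate (6.12% against 16.1% for H2B, and 9.59% against 19.3% for H4). H3 genes went from 41.8 to 928.1 CPM, and from 4.94% to 7.17% of the members' UMIs. These shares describe primed molecules and not protein, and the members differ in what follows their stem-loop.

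Single cells of the S and G2/M gates spanned low and high histone counts. Of 5000 UMIs, the median cell held 3 to 4 histone UMIs in the resting gate, 2 to 3 in the S gate, 49 to 76 in the S to G2 gate and 17 to 26 in the G2/M gate, over the 4 libraries. Cells with 20 or more histone UMIs made up 0.778% to 1.41% of resting cells, 7.61% to 11.1% of S cells, 88.9% to 91.5% of S to G2 cells and 47.9% to 53.1% of G2/M cells. In the S cells with 8 to 14 G2/M-list UMIs this share was 27.3% to 39.5%, and in those with 0 to 2 it was at most 0.118%. Values of 15 to 24 UMIs were held by 1.38% to 2.73% of S cells, 3.27% to 8.70% of S cells with 8 to 14 G2/M-list UMIs, 1.496% to 7.03% of S to G2 cells and 5.29% to 11.04% of G2/M cells. Medians of total UMIs per cell were 7457 in the resting gate, 12580 in the S gate, 16510 in the S to G2 gate and 16140 in the G2/M gate. The median mitochondrial share was 3.93% to 4.19% in resting cells and 2.92% to 3.44% in the other gates over libraries. The part of depth and of the mitochondrial share in these differences was not tested. No doublet caller was run, and the part of doublets in the S to G2 gate was not tested. The number of members higher in S to G2 than in S cells was 47 without the 8% of cells with the most UMIs, against 46. Leaving out these cells does not single out doublets, so the number says nothing of their part.

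**Figure D2:**
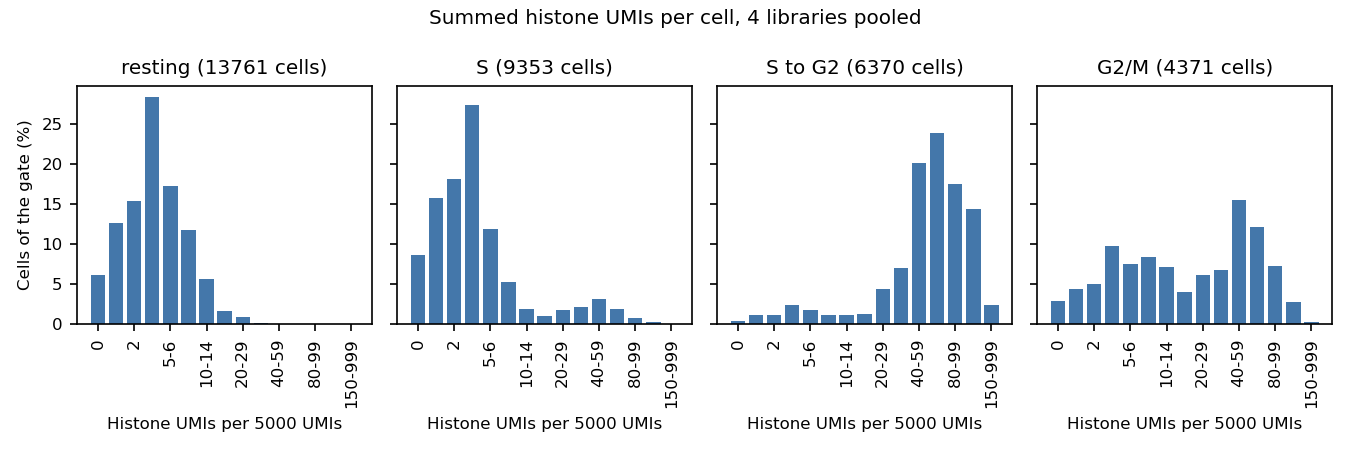
Percent of cells (vertical axis) by summed histone UMIs of the 61 members per 5000 UMIs (horizontal axis, bins of unequal width), in 4 gates with the libraries pooled. Resting and S cells sit mostly below 10 UMIs, S to G2 cells mostly above 40, and G2/M cells at both.

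Against resting cells, 14 members passed the 2-fold rule as higher in the S gate and 4 as lower, of 32 members tested (among all 9897 genes tested, 4.88% were higher and 2.98% lower). Those higher were 2 H1, 4 H2A, 4 H2B, 3 H3 and 1 H4 gene, and the median log2 ratio was 0.85 over the members tested and -0.05 over all genes. In the S to G2 gate 42 of 48 members tested were higher and 0 lower (6.74% and 5.33% of 9879 genes), with a median of 3.39. Between the S and the S to G2 gate, 46 of 47 members tested were higher and 0 lower in the latter (2.35% and 0.105% of 9566 genes), so members made up 46 of 225 genes called higher there. The comparisons with the S to G2 gate were added after its level had been seen. Most members passed the level filter through the gate where they were high, so these counts and medians describe the tested members and not all 61. The same limit holds for the counts of members in the other comparisons below. The S count depended on where the gates were placed, being 28 with gate borders of 9 and 22.5 UMIs in place of 6 and 15, and 3 with borders of 3 and 7.5. Counted as UMIs per cell without scaling, 21 members were higher and 1 lower in the S gate, beside a median of 0.71 over all genes.

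Linker histone genes differed widely among themselves. Hist1h1b, which encodes H1.5, stood at 30.4, 31.6, 19.5 and 14.4 CPM in resting cells of libraries 1 to 4, 432, 363, 343 and 365 CPM in the S gate and 2553, 2833, 2066 and 2186 CPM in the S to G2 gate. Its log2 ratio to resting cells was 3.93 (range 3.48 to 4.57) in the S gate and 6.55 (range 6.35 to 7.15) in the S to G2 gate, the highest of any member in the S gate. Hist1h1a, which encodes H1.1, went from 10.2, 10.3, 8.53 and 5.89 CPM to 403, 456, 342 and 365 CPM, a log2 ratio of 5.25 (range 5.17 to 5.73). The gates did not overlap for either gene.

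The remaining H1 genes began from a higher resting level. Hist1h1e, which encodes H1.4, stood at 204, 216, 158 and 155 CPM in resting cells, 228, 208, 193 and 204 CPM in the S gate and 1385, 1441, 1145 and 1208 CPM in the S to G2 gate. Its resting and S values overlapped, and its log2 ratio was 0.22 (range -0.05 to 0.39) in the S gate and 2.80 (range 2.73 to 2.95) in the S to G2 gate. Hist1h1d, which encodes H1.3, stood at 39.6, 39.1, 31.7 and 29.9 CPM in resting cells and 297, 321, 235 and 263 CPM in the S to G2 gate, a log2 ratio of 2.94 (range 2.85 to 3.10). Hist1h1c, which encodes H1.2, is described with the resting-cell members below.

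Among H2A genes, Hist1h2ap gave 63.8, 42.2, 28.3 and 43 CPM in resting cells, 489.8, 254, 221 and 392 CPM in the S gate and 3469, 2251, 1460 and 2543 CPM in the S to G2 gate. Every 60-base window in the last 400 bases of its annotated transcript also occurs in another gene, so reads there cannot be told from those of its copies by sequence alone. Hist1h2ae gave 36.5, 32.3, 28 and 33.7 CPM in resting cells and 1465, 1200, 908 and 1207 CPM in the S to G2 gate, a log2 ratio of 5.15 (range 4.97 to 5.29). Hist1h2ab, from 5.58, 5.23, 2.86 and 3.26 CPM to 428, 394, 269.5 and 334 CPM, reached 6.08 (range 5.99 to 6.30). Hist2h2ac, on chromosome 3, went from 17.97, 24.3, 12.9 and 13.8 CPM to 355, 413, 276 and 302 CPM and had a log2 ratio of 4.27 (range 4.03 to 4.35). In all of these H2A genes the resting and S to G2 values were far apart. Of 13 H2A members tested 11 were higher in the S to G2 gate, beside the share of all genes given above. Hist1h2ag, Hist1h2ah and Hist1h2ao, below the level filter, had median log2 ratios of 2.48, 1.03 and 0.50.

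H2B genes were captured at lower sums than H1 and H2A genes. Hist1h2bj gave 2.64, 2.73, 1.94 and 1.43 CPM in resting cells, 18.8, 15.96, 14.99 and 15.8 CPM in the S gate and 127, 127, 91.7 and 102 CPM in the S to G2 gate, a log2 ratio of 5.12 (range 4.98 to 5.40) for the last. Hist2h2bb went from 5.54, 6.83, 5.22 and 5.83 CPM to 124, 132, 104 and 117 CPM, a log2 ratio of 4.10 (range 4.08 to 4.25). Hist1h2be went from 15.1, 15.7, 15.3 and 17.2 CPM to 67.02, 74.9, 57.3 and 61.1 CPM, a log2 ratio of 1.96 (range 1.77 to 2.18), while its log2 ratio of S to resting cells was -0.10 (range -0.28 to -0.07). The annotated Hist1h2be gene overlaps the 3′ end of Hist1h1e on the same strand, so reads in the shared stretch cannot be assigned from position alone.

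H3 genes held the other extreme ratio. Hist1h3c gave 3.35, 3.82, 1.41 and 1.36 CPM in resting cells, 41.8, 37.7, 30.1 and 32.9 CPM in the S gate and 383, 422, 239 and 282 CPM in the S to G2 gate. Its log2 ratio to resting cells was 3.49 (range 3.01 to 3.84) in the S gate and 6.55 (range 6.46 to 6.90) in the S to G2 gate. Hist1h3e went from 21.1, 20.8, 13.9 and 11.9 CPM to 218, 237, 153 and 169 CPM and Hist1h3f from 11.3, 11.01, 5.01 and 7.14 CPM to 172, 173, 94.6 and 133 CPM. Their log2 ratios were 3.41 (range 3.31 to 3.71) and 3.93 (range 3.82 to 4.04). All 9 H3 members tested were higher in the S to G2 gate, beside the share of all genes given above. Hist2h3c1 and Hist2h3c2, below the level filter, had log2 ratios of 1.49 (range 1.35 to 1.65) and 0.59 (range 0.43 to 0.75).

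H4 genes differed in their resting level, and 4 of 13 met the rule for members kept in resting cells given below. Hist1h4d gave 113, 109, 86.8 and 88.99 CPM in resting cells, 148, 130.0, 113 and 120.3 CPM in the S gate and 856, 809.6, 636 and 676 CPM in the S to G2 gate, with log2 ratios of 0.38 (range 0.25 to 0.43) and 2.90 (range 2.86 to 2.91). Hist1h4h went from 33.3, 28.2, 16.1 and 19.9 CPM to 238, 215, 129 and 159 CPM and Hist1h4i from 23.1, 22.4, 20.7 and 19.2 CPM to 131, 116, 133 and 126 CPM, log2 ratios of 2.91 (range 2.80 to 2.93) and 2.54 (range 2.32 to 2.65). For both genes the S gate stayed within 2-fold of resting cells. In Hist4h4, the only member on chromosome 6, the log2 ratio in the S to G2 gate was 0.70 (range 0.65 to 0.82), short of the 2-fold rule.

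**Figure D3:**
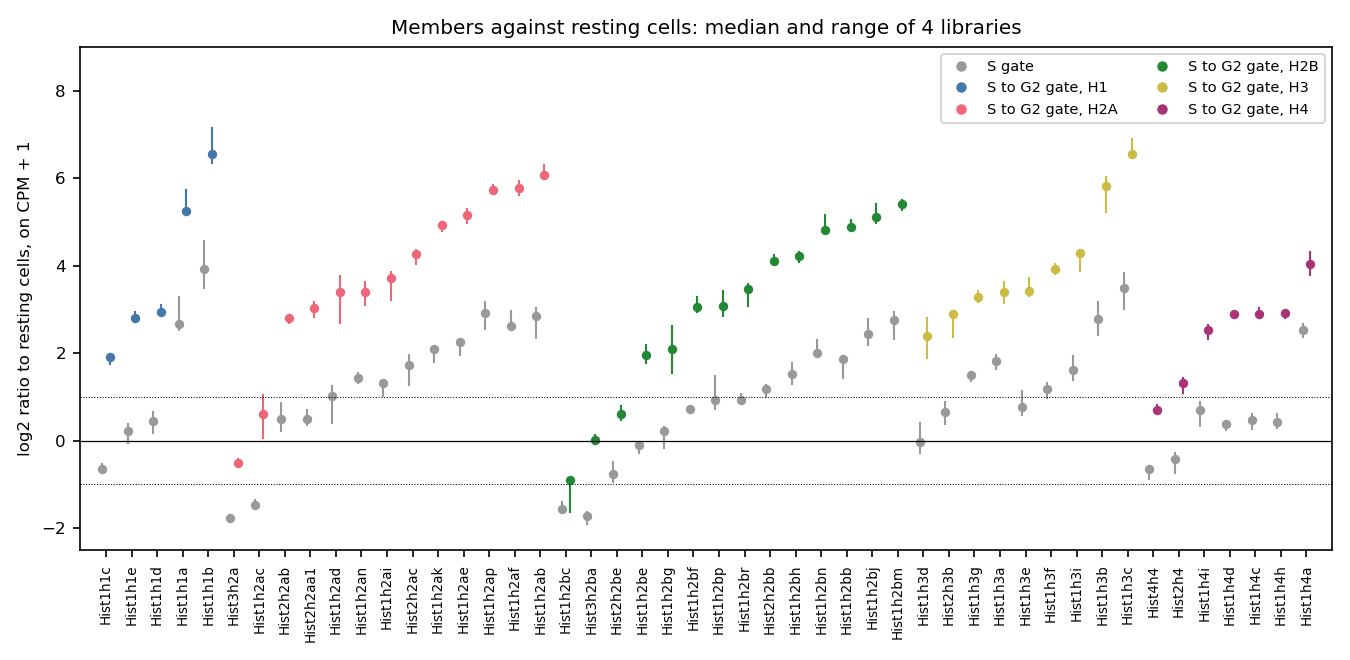
Log2 ratio to resting cells (CPM + 1) of the 48 members tested in the S to G2 gate, ordered by family; points are medians and bars the range of 4 libraries, grey for the S gate and coloured for the S to G2 gate. Dotted lines mark 2-fold; Hist1h1b and Hist1h3c reach 6.55, while Hist1h2bc and Hist3h2a lie below 0, which on a per-cell scale becomes 0.23 and 0.62.

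A small set of H2A and H2B genes went the other way. The 4 members lower in the S gate than in resting cells by CPM were Hist1h2ac, Hist1h2bc, Hist3h2a and Hist3h2ba (in UMIs per cell Hist3h2a alone was 2-fold lower in every library), an H2A and an H2B gene from each of 2 neighbouring pairs. Hist1h2ac (chr13:23681467-23683948, minus strand) and Hist1h2bc (chr13:23684199-23692908, plus strand) start side by side and point away from each other. Hist3h2ba (chr11:58948920-58949533) and Hist3h2a (chr11:58954685-58956830) follow each other on the plus strand.

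Hist1h2bc gave 93.4, 85.4, 88.6 and 71.9 CPM in resting cells, 31.2, 27.6, 27.7 and 26.5 CPM in the S gate, 48.95, 45.6, 28.02 and 37.9 CPM in the S to G2 gate and 76.6, 78.6, 70.2 and 68.4 CPM in the G2/M gate. It was the only member whose highest level among the 7 gates was in resting cells in every library. Its log2 ratio to resting cells was -1.57 (range -1.64 to -1.40) in the S gate and -0.91 (range -1.63 to -0.89) in the S to G2 gate. Hist1h2ac gave 26.8, 28.9, 39.99 and 46.1 CPM, 9.83, 9.50, 14.1 and 15.8 CPM, 55.7, 60.6, 41.5 and 52.01 CPM and 53.8, 59.5, 48.9 and 50.7 CPM in the same gates, with a log2 ratio of -1.47 (range -1.51 to -1.36) in the S gate. Resting values of libraries 3 and 4 were above those of libraries 1 and 2 for Hist1h2ac, and the resting and S values did not overlap for either gene.

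Hist3h2a gave 25.9, 24.6, 28.2 and 25.2 CPM in resting cells, 6.39, 6.68, 7.42 and 6.65 CPM in the S gate, 17.3, 15.9, 20.3 and 18.6 CPM in the S to G2 gate and 28.7, 30.2, 34.2 and 31.5 CPM in the G2/M gate. It alone among the 61 members peaked in the G2/M gate in every library. In the same gates Hist3h2ba gave 11.7, 11.1, 11.4 and 11.1 CPM, 2.96, 2.53, 2.32 and 2.86 CPM, 12.8, 10.6, 11.4 and 11.2 CPM and 15.1, 15.4, 15.4 and 14.3 CPM. The log2 ratio of S to resting cells was -1.78 (range -1.86 to -1.74) for Hist3h2a and -1.73 (range -1.90 to -1.64) for Hist3h2ba. Hist3h2a overlaps Trim17 on the same strand in the annotation, so reads in the shared stretch cannot be assigned from position alone.

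Part of the fall depends on the scale, and S cells held more UMIs than resting cells. In UMIs per cell the log2 ratios of S to resting cells were -1.08 for Hist3h2ba, -1.05 for Hist3h2a, -0.81 for Hist1h2bc and -0.70 for Hist1h2ac, against a median of 0.71 over all genes tested. All 4 medians stayed below 0, and Hist3h2a alone still passed the 2-fold rule. In the S to G2 gate the per-cell log2 ratios to resting cells were 0.23 for Hist1h2bc, 0.62 for Hist3h2a, 1.09 for Hist3h2ba and 1.74 for Hist1h2ac. These were positive where the CPM ratios of Hist1h2bc and Hist3h2a were negative, beside a median of 1.08 over all genes tested.

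Taking a member as kept in resting cells where it held at least 5 CPM there and its log2 ratio of S to resting cells was at most 1 in every library, 12 of 61 members qualified. They were Hist1h1c, Hist1h1d and Hist1h1e of H1, Hist1h2ac and Hist3h2a of H2A, Hist1h2bc, Hist1h2be and Hist3h2ba of H2B, and Hist1h4d, Hist1h4h, Hist1h4i and Hist4h4 of H4, with no H3 gene. Hist1h1b and Hist1h3c met the opposite rule of a log2 ratio of at least 3 in every library. With the S to G2 gate in place of the S gate, a comparison added after seeing the data, 4 members were kept (Hist1h2bc, Hist3h2a, Hist3h2ba and Hist4h4) and 25 met the opposite rule. On the per-cell scale 7 members were kept by the S ratio and 2 by the S to G2 ratio.

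Hist1h1c shows how both readings differ. It gave 89.2, 98.1, 67.6 and 65.2 CPM in resting cells, 39.2, 44.2, 31.7 and 27.9 CPM in S cells with 0 to 2 G2/M-list UMIs, 52.6, 58.5, 46.4 and 43.7 CPM in the whole S gate and 304, 382, 249.7 and 262 CPM in the S to G2 gate. The S cells with 0 to 2 G2/M-list UMIs were below resting cells in every library by CPM, at a log2 ratio of -1.15 (range -1.20 to -1.07). The S to G2 gate was above resting cells, at 1.91 (range 1.76 to 1.99). Per 100 cells Hist1h1c gave 68.3, 76.5, 56.4 and 56.4 UMIs in resting cells and 44.8, 50.5, 39.5 and 35.7 UMIs in these S cells. Over the whole S gate its per-cell log2 ratio to resting cells was 0.13 (range 0.03 to 0.25). Hist4h4, an H4 gene, gave 8.83, 9.88, 7.16 and 7.32 CPM, 5.58, 4.94, 4.23 and 4.24 CPM and 16.4, 16.3, 12.5 and 12.1 CPM in resting, S and S to G2 cells. Over all members, S cells with 0 to 2 G2/M-list UMIs had 5 of 22 members tested lower than resting cells and 0 higher (1.5% and 2.46% of 9839 genes): Hist3h2ba, Hist1h2ac, Hist1h2bc, Hist3h2a and Hist1h1c.

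**Figure D4:**
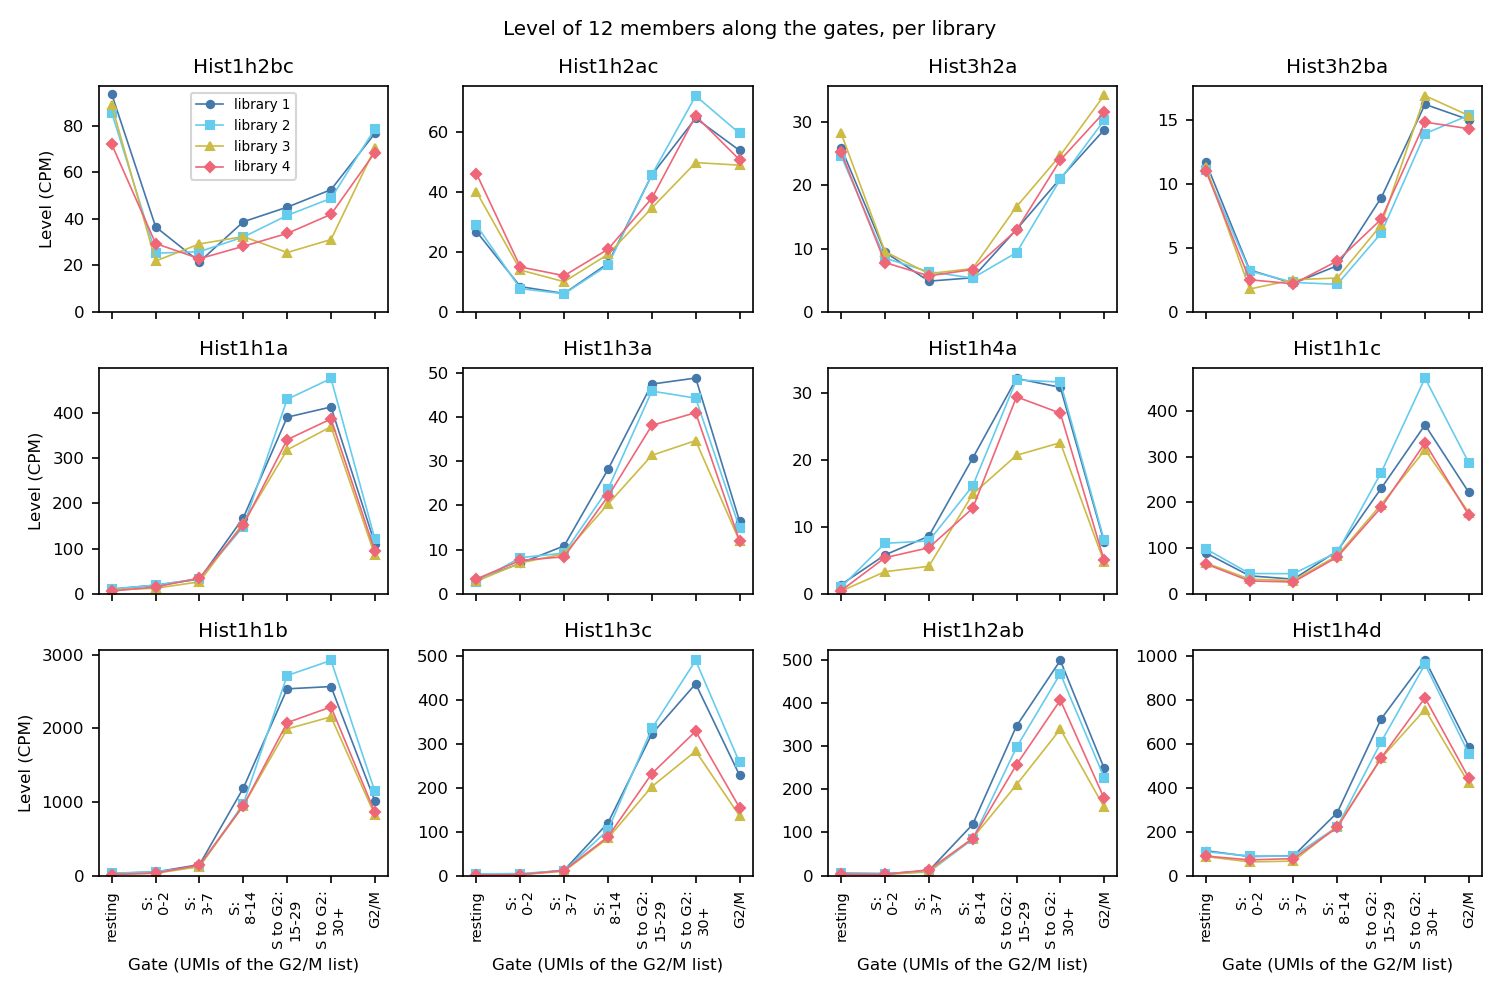
CPM (linear axes, each from 0 with its own scale) of 12 members along the 7 gates, 1 line per library. In the top row Hist1h2bc, Hist1h2ac, Hist3h2a and Hist3h2ba drop from resting to S cells in CPM. In UMIs per cell only Hist3h2a drops by 2-fold in every library. Hist1h1a, Hist1h3a and Hist1h4a are above resting cells in S cells with 0 to 2 G2/M-list UMIs.

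Resting-cell levels differed with the annotated transcript end. The 22 members with a stem-loop and more than 100 bases after it held 70.3% of the members' CPM in resting cells, and 14 of them had at least 5 CPM there. The 22 members whose transcript ended within 100 bases of the stem-loop held 12.8%, and 4 of them had at least 5 CPM. Median resting levels were 10.2 CPM (range over members 0.246 to 181.1) and 0.81 CPM (range 0.0765 to 42.6). Median log2 ratios of S to G2 to resting cells were 2.35 (range -0.50 to 5.15) and 3.18 (range 0.50 to 6.55), so the groups overlapped widely. Different genes are compared here, and they may also differ in priming and in 3′ windows shared with other genes. The part of either in these levels was not tested. Hist1h2bc was among 7 members with an annotated 3′ end but no stem-loop in it, which held 12.6%. That end was 1 base in Hist1h2af and 2 in Hist1h2ah, too short to hold a stem-loop. It was 37 bases in Hist2h3b and 48 in Hist1h1a, so the group does not show which genes lack a stem-loop. A further 10 members had no annotated 3′ untranslated end.

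A trio of adjacent genes was above resting cells in S cells with 0 to 2 G2/M-list UMIs. It also fell furthest of the members tested from S to G2 to G2/M cells. Hist1h4a, Hist1h3a and Hist1h1a lie next to each other at chr13:23760692-23761230, chr13:23761853-23762386 and chr13:23763666-23764406. Hist1h3a and Hist1h4a fall outside the rule for named genes and were chosen after their values were seen. In S cells with 0 to 2 G2/M-list UMIs, Hist1h3a stood at 6.89, 8.16, 6.97 and 7.54 CPM against 3.18, 2.73, 2.82 and 3.35 CPM in resting cells, and Hist1h4a at 5.80, 7.54, 3.30 and 5.39 against 1.37, 1.001, 0.388 and 0.465 CPM. Hist1h1a stood at 18.8, 19.2, 12.2 and 14.8 CPM there, far below its S to G2 level. The groups did not overlap for any gene of the trio, while no member passed the 2-fold rule as higher in all libraries in this gate, and Hist1h4a was below the level filter. A higher level in these S cells was not particular to the trio. Median log2 ratios to resting cells were 1.86 for Hist1h4a, 1.02 for Hist1h3a and 0.83 for Hist1h1a, beside 0.68 for Hist1h1b and 0.49 for Hist1h2bm, which lie elsewhere on chromosome 13.

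The trio had the 3 most negative log2 ratios of G2/M to S to G2 cells: -1.94 (range -2.29 to -1.87) for Hist1h4a, -1.92 (range -1.99 to -1.85) for Hist1h1a and -1.51 (range -1.64 to -1.39) for Hist1h3a. In G2/M cells Hist1h4a gave 7.72, 7.99, 4.69 and 4.98 CPM against 31.5, 31.8, 21.6 and 28.2 CPM in S to G2 cells. Hist1h3a gave 16.5, 14.9, 11.9 and 12 against 48.2, 45, 32.9 and 39.6 CPM, and Hist1h1a 111, 122, 85.1 and 94.4 against 403, 456, 342 and 365 CPM. In all, 9 of 51 members tested were lower in G2/M than in S to G2 cells and 0 higher (1.3% and 0.512% of 9571 genes). The other 6 were Hist1h1b, Hist2h2bb, Hist1h2ak, Hist1h3b, Hist2h2ac and Hist1h2ae, with log2 ratios of -1.33 to -1.07. The count of 9 was 25 with gate borders of 3 and 7.5 UMIs, 4 with borders of 9 and 22.5 and 5 after thinning to 3000 UMIs.

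Against the S gate, 40 of 44 members tested were higher in G2/M cells and 0 lower (2.46% and 1.19% of 9669 genes), with a median log2 ratio of 1.75. The 4 that did not pass were Hist4h4 and the trio, at 1.06 for Hist4h4, 0.59 for Hist1h1a, 0.08 for Hist1h3a and -0.50 for Hist1h4a. With gate borders of 9 and 22.5 UMIs the count was 21. Against resting cells 36 of 42 members tested were higher in G2/M cells and 0 lower (4.77% and 2.47% of 9900 genes). Low members could pass the level filter through their G2/M level alone, so both counts and the median describe the tested members only. Within the S gate, cells in which genes that peak in middle S phase gave at least the median share of the S-list UMIs were compared with those below it. All 9 genes that passed as higher among 9622 tested (0.0935%) were members, namely Hist1h1b, Hist1h2ab, Hist1h2ae, Hist1h2ap, Hist1h2bj, Hist1h2bm, Hist1h2bn, Hist1h3b and Hist1h3c, and 0 genes were lower.

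Some genes that switch on, process and deliver histones were high in the S gate already. Of 25 such genes 24 were tested, and 6 were higher in S than in resting cells and 0 lower (4.88% and 2.98% of all genes), with a median log2 ratio of 0.86 against -0.05 over all genes. In S to G2 against resting cells 10 were higher and 0 lower (6.74% and 5.33% of all genes), with a median of 0.76. Chaperones led: the log2 ratio was 4.07 (range 3.96 to 4.22) for Asf1b, which carries H3 and H4, 3.46 (range 3.35 to 3.72) for Chaf1a, a subunit of the chromatin assembly factor CAF-1, and 2.95 (range 2.82 to 3.13) for Nasp, which holds histone stores. It was 2.06 (range 1.91 to 2.11) for Slbp, the stem-loop binding protein, 1.88 (range 1.82 to 2.00) for Hat1, which acetylates new H4, and 1.45 (range 1.34 to 1.47) for Casp8ap2, which acts in histone gene expression. Slbp stood at 44.7, 43.4, 40.8 and 40.96 CPM in resting cells, 171, 181, 177 and 180.2 CPM in the S gate, 196, 203, 205 and 207 CPM in the S to G2 gate and 60.6, 59.5, 57.4 and 57.5 CPM in the G2/M gate. Nasp stood at 35.8, 36.1, 29.9 and 26.8 CPM at rest, 259, 272, 248 and 242 CPM in S, 239, 246, 225 and 220.3 CPM in S to G2 and 101, 103, 97.1 and 96.5 CPM in G2/M cells. Nasp was highest in the S gate, and Slbp was close there to its S to G2 level, while the members were still low.

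From the S to the S to G2 gate none of the 24 passed in either direction, with a median log2 ratio of 0.04, while 46 members did. From the S to the G2/M gate 6 were lower and 0 higher (1.19% and 2.46% of all genes): Slbp at -1.60 (range -1.63 to -1.48), Chaf1b, Nasp, Chaf1a, Hat1 and Casp8ap2. Asf1b, at 34.9, 34.5, 32.7 and 36.7 CPM in S cells and 70.3, 67.5, 71.5 and 78.3 CPM in S to G2 cells, was within the 2-fold rule in at least 1 library. Npat, the histone gene activator, stood at 18.7, 23.8, 17.8 and 17.8 CPM in resting cells and 30.2, 39.1, 27.9 and 30.8 CPM in the S gate, a log2 ratio of 0.68 (range 0.62 to 0.76) that did not pass.

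Cells were gated by marker genes, a cell being placed where at least 3 markers of 1 list, and more than of any other, had a UMI. The stem cell-like gate held 10105 cells, the lymphoid-primed-like gate 5723, the neutrophil progenitor-like gate 3504, the megakaryocyte progenitor-like gate 2301, the B cell-like gate 1203, the erythroid progenitor-like gate 615, the monocyte progenitor-like gate 474 and the plasma cell-like gate 455. A gate of 1855 cells set by dendritic cell markers lacked the defining ones, with Siglech at 5.67 CPM, Cd209d at 0.422 CPM and Itgax at 9.61 CPM, and is called the Tcf4, Bst2, Flt3 and Runx2 gate. Gates with fewer than 20 cells in a library were not compared. The stem cell-like gate had Hlf at 519.8 CPM, Mecom at 157.2 CPM and Procr at 108.7 CPM, and the plasma cell-like gate Jchain at 35020 CPM and Tnfrsf17 at 189.9 CPM. Within a cell cycle gate the summed histone level overlapped that of stem cell-like cells in most types. It did not overlap in B cell-like and neutrophil progenitor-like cells of the S gate, which were above, and in resting monocyte progenitor-like and plasma cell-like cells, which were below. The S gates of these types differed in G2/M-list UMIs, and with 8 to 14 of them the ranges overlapped, as given below.

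In resting cells the 61 members summed to 968, 969, 732 and 781 CPM in the stem cell-like gate of libraries 1 to 4. The sum was 1067, 1029, 848 and 902 CPM in the lymphoid-primed-like gate, 953, 988, 909 and 776 CPM in the neutrophil progenitor-like gate and 1065, 1061, 857 and 775 CPM in the megakaryocyte progenitor-like gate. These ranges overlapped, though lymphoid-primed-like cells were above stem cell-like cells in each library by a log2 ratio of 0.09 to 0.21. Resting monocyte progenitor-like cells gave 519.8, 509, 339 and 439.8 CPM and resting plasma cell-like cells 305, 263, 221 and 215 CPM, both below every library of the stem cell-like gate.

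Of 18 members tested in resting monocyte progenitor-like cells, 5 were lower than in resting stem cell-like cells and 0 higher (15.9% and 7.4% of 9741 genes). They were Hist1h2ac, Hist1h2ae, Hist1h2be, Hist1h4d and Hist1h4h. Hist1h2ac was the extreme case, with 1, 0, 1 and 3 UMIs in libraries 1 to 4. Its level was 1.28, 0, 1.78 and 6.56 CPM, with upper 95% Poisson limits of 7.13, 8.57, 9.89 and 19.2 CPM, against 38.6, 40.1, 50.7 and 60.03 CPM in stem cell-like cells. Its neighbour Hist1h2bc stood at 43.5, 30.2, 17.8 and 41.6 CPM against 94.5, 82.7, 74.6 and 65.2 CPM, without passing the rule in every library. Hist3h2a stood at 21.8, 32.5, 33.7 and 39.4 CPM against 26.6, 25.2, 27.7 and 26.7 CPM, so the members kept in resting cells did not move together here. Hist1h4d stood at 37.1, 44.1, 26.6 and 37.2 CPM against 126, 124, 100.5 and 106 CPM. The gate held 255 resting cells, and with at least 4 markers 3 members passed. The median log2 ratio was -0.95 over the members tested and -0.45 over all genes.

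In resting plasma cell-like cells 9 of 18 members tested were lower than in stem cell-like cells and 0 higher, beside 58.3% lower and 3.51% higher among 9361 genes. The median log2 ratio was -1.57 over the members tested and -1.54 over all genes, so the share of members was below that of all genes, and on the per-cell scale 1 member was lower. Plasma cells are known not to divide, and several members were still captured there. Hist1h1b stood at 14.1, 16.6, 6.64 and 5.92 CPM there, against 25.4, 27.5, 15.5 and 11.9 CPM in resting stem cell-like cells. Hist1h2bc stood at 26.8, 18.4, 36.8 and 22.4 CPM and Hist1h1c at 32.5, 40.3, 31.4 and 36.8 CPM. The part of free RNA in the resting levels was not tested.

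Single members were higher in 2 other resting gates. Hist1h1a stood at 19.7, 18.3, 16.7 and 18.5 CPM in resting lymphoid-primed-like cells against 6.05, 7.36, 5.99 and 4.02 CPM in stem cell-like cells, a log2 ratio of 1.45 (range 1.21 to 1.96). It was the only member of 23 tested that passed as higher there, and 0 were lower (2.27% and 3.62% of 9939 genes). Hist1h1b stood at 72.6, 111, 69.6 and 37.2 CPM in resting erythroid progenitor-like cells, on 21, 22, 15 and 7 UMIs (95% Poisson limits of 14.97 to 76.7 CPM in library 4), a log2 ratio of 1.77 (range 1.48 to 2.10) to stem cell-like cells. It was the only member of 21 tested that passed as higher there and 0 were lower (1.31% and 3.66% of 9770 genes). In resting neutrophil progenitor-like cells 0 of 22 members tested passed in either direction (0.599% of genes higher, 1.17% lower), as did 0 of 21 in the Tcf4, Bst2, Flt3 and Runx2 gate (2.05% and 1.39%) and 0 of 21 in megakaryocyte progenitor-like cells (0.303% and 0.434%). Neither Hist1h1a nor Hist1h1b overlapped between the gates compared.

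In the S gate B cell-like cells held more histone RNA than stem cell-like cells, 5286, 7228, 3721 and 5160 CPM against 1540, 1207, 1402 and 1516 CPM. Of 36 members tested 18 were higher and 0 lower (2.89% and 7.64% of 9531 genes): 4 H1, 6 H2A, 7 H2B and 1 H4 gene. Hist1h1b had the highest log2 ratio at 2.32 (range 2.23 to 3.53), followed by Hist1h2bn at 2.25 (range 1.83 to 2.69). The S gates were not alike, since the median B cell-like cell there had 9 UMIs of the G2/M list and the median stem cell-like cell 3. With both restricted to 8 to 14 UMIs of that list, a comparison added after seeing the data, the sums were 7007, 8982, 4874 and 7316 CPM and 4311, 2843, 4310 and 5090 CPM. B cell-like cells were above in each library, though the ranges overlapped. Neutrophil progenitor-like cells gave 3460, 3104, 2266 and 2888 CPM in the S gate at a median of 6 G2/M-list UMIs, and 6382, 5922, 4367 and 4521 CPM within 8 to 14. Within 8 to 14 they were above stem cell-like cells in libraries 1 and 2, close to them in library 3 (4367 against 4310 CPM) and below them in library 4 (4521 against 5090 CPM). The ranges overlapped. Of 36 members tested in their S gate 2 were higher and 0 lower, Hist1h1b at 1.54 and Hist1h2af at 1.47 on the log2 scale (1.61% and 3.16% of 9609 genes). That count was 8 without library 3. No member passed in the S gate of lymphoid-primed-like cells (31 tested, 1.17% of genes higher and 2.11% lower), of the Tcf4, Bst2, Flt3 and Runx2 gate (32 tested, 0.205% and 0.41%), of erythroid progenitor-like cells (34 tested, 1.36% and 3.76%) or of megakaryocyte progenitor-like cells (30 tested, 0.814% and 1.66%).

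In the S to G2 gate the summed levels of the types overlapped. The sum was 15900, 14040, 10530 and 11830 CPM in stem cell-like cells, 14080, 12970, 9115 and 11050 CPM in lymphoid-primed-like cells, 15040, 16520, 11390 and 15670 CPM in B cell-like cells and 16380, 14140, 9219 and 11470 CPM in megakaryocyte progenitor-like cells. Neutrophil progenitor-like cells gave 11110, 10220, 7345 and 8219 CPM, lower than stem cell-like cells in each library by a log2 ratio of -0.53 to -0.46, and their median cell held 21150 UMIs against 15540. No member passed in either direction in lymphoid-primed-like cells (53 tested, 0.943% of genes higher and 1.86% lower), B cell-like cells (53 tested, 3.08% and 8.87%), the Tcf4, Bst2, Flt3 and Runx2 gate (52 tested, 0.229% and 0.344%) or megakaryocyte progenitor-like cells (53 tested, 0.585% and 0.951%). Of 52 members tested in neutrophil progenitor-like cells 0 were higher and Hist3h2ba alone was lower, at 3.18, 3.01, 3.35 and 2.83 CPM against 17.04, 16.5, 21.4 and 15.9 CPM, a log2 ratio of -2.13 (range -2.36 to -2.11). Of 9496 genes 1.48% were higher and 2.22% lower there. In B cell-like cells Hist3h2ba stood at 25.8, 22.99, 23.3 and 25.1 CPM. Erythroid progenitor-like cells gave 7.55, 5.72, 7.47 and 2.58 CPM on 5, 5, 5 and 2 UMIs, again the only member lower of 53 tested, with 0 higher (4.05% and 1.8% of 9470 genes), a call that did not hold per cell.

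**Figure D5:**
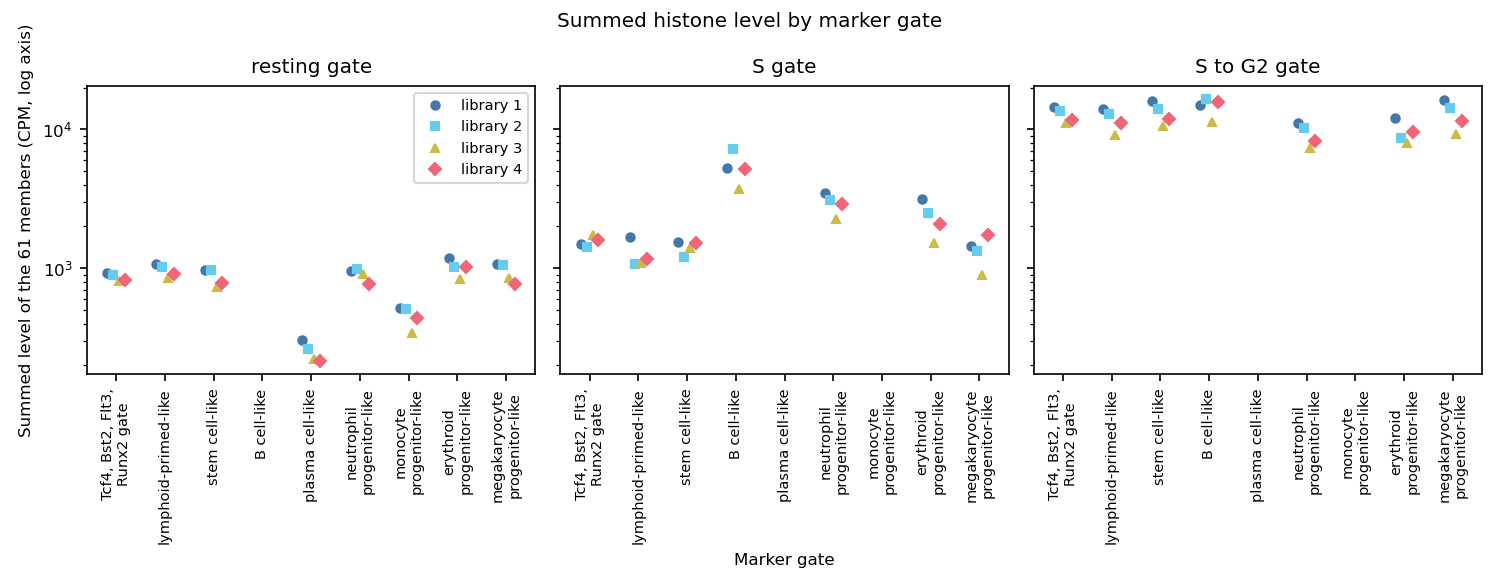
Summed CPM (log axis) of the 61 members by marker gate in resting, S and S to G2 cells, 1 point per library; gates with fewer than 20 cells in a library have no points. Resting plasma and monocyte progenitor-like cells lie lowest, S gate B cell-like cells lie at 3721 to 7228 CPM, and S to G2 values span 7345 to 16520 CPM.

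The share of cells in the S to G2 gate differed between types. S to G2 cells made up 68.7% to 73.8% of B cell-like cells over libraries, 21.4% to 31.6% of neutrophil progenitor-like cells, 18.4% to 23.4% of erythroid progenitor-like cells, 18.5% to 22.3% of megakaryocyte progenitor-like cells, 11.7% to 14.9% of lymphoid-primed-like cells and 4.44% to 10.5% of stem cell-like cells. Plasma cell-like cells held 0 to 3% there. The gates thus differed in make-up. Stem cell-like cells were 6021 of 13761 resting, 1300 of 9353 S and 693 of 6370 S to G2 cells. In the same gates B cell-like cells numbered 30, 232 and 848, and neutrophil progenitor-like cells 333, 1376 and 850.

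The 4 libraries differed in histone RNA. The members made up 0.556%, 0.565%, 0.354% and 0.407% of all UMIs in libraries 1 to 4, and S to G2 cells made up 16.5%, 19.5%, 15.1% and 13.8% of analysed cells. Over all analysed cells, 7 of 44 members tested differed by at least 2-fold between the highest and the lowest library (0.652% of 9819 genes): Hist1h2ai, Hist1h2ap, Hist1h2br, Hist1h3f, Hist1h2ad, Hist1h3c and Hist1h3b. Within 1 cell cycle gate it was 4 of 53 in S to G2 cells (0.667% of 9439 genes), 4 of 21 in resting cells (1.29%), 3 of 48 in G2/M cells (0.925%) and 1 of 34 in S cells (0.395%). Hist1h2ap was among them in each gate, at 3469, 2251, 1460 and 2543 CPM in S to G2 cells of libraries 1 to 4. Library 3 was lowest for 42 of 53 members in S to G2 cells, against 33% of genes. The labels do not say which sample library 3 was, so none of these differences can be read as an effect of genotype.

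Counts of near-identical copies remain uncertain. In 19 members at least 75% of the 60-base windows in the last 400 bases of the annotated transcript also occur in another gene, and in 17 members none do. Hist1h2bc, Hist1h2ac, Hist3h2a, Hist1h1b, Hist1h1c, Hist1h4d and Hist1h4i had no shared window. Hist1h1a was also free of them, Hist1h3a shared 49.6% and Hist1h4a 54%. Hist1h1e shared all of its windows, as its 3′ end overlaps the annotated Hist1h2be.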

How the data were processed

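Single-cell RNA-seq of 2 WT and 2 Srcap mutant samples was used as 1 aggregated matrix of UMI counts, which the authors deposited from Cell Ranger 6.1.2, per the file headers. The submitters' processing notes name build mm10, and the annotation release is not given in the sources used here. Barcode suffixes 1 to 4 carry no sample name, so mutant and WT were not compared, and libraries were described one by one without tests. The members and gene lists were chosen with earlier results of these data known. Of 44151 barcodes 41122 passed limits of 500 genes or more and a mitochondrial share no higher than 10%, and 2004 of these with under 5000 UMIs were not analysed. Of all barcode sequences 209 occurred in more than 1 library. No doublet caller was run. Libraries held 112027160 to 144385614 UMIs over all barcodes.

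Cells were thinned to 5000 UMIs (seed 1) for gating, and full counts were summed per library and gate. Ratios used a pseudocount of 1 CPM, and genes with a mean of at least 5 CPM over the gates compared were counted at 2-fold in every library. Type gates needed at least 3 markers, more than of any other type, and at least 20 cells per library. Named members were the 3 highest per family in S cells, those kept in resting cells, and the 5 highest ratios of S to resting cells among members of at least 20 CPM in S cells; up to 6 supply genes with the largest ratios were named. Other members were chosen after their values were seen. Poisson limits are 95% and cover counting error only. Stem-loops and transcript ends came from GENCODE M21, and promoters from RefSeq. Protein sequences were not used here. Python 3.11.15, numpy 2.4.6, scipy 1.17.1, pandas 2.3.3 and matplotlib 3.10.9 were used, and the counting of calls was tested on simulated data.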

Additional observations from a re-analysis of the deposited data

How the results depend on the processing

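For 22 counts, 210 values under an alternative stayed within 1.5 times the reported count and 32 did not. With borders of 3 and 7.5 UMIs in place of 6 and 15, 3 members in place of 14 were higher in S than in resting cells, 0 in place of 2 met the opposite of the kept rule by the S ratio, and between S to G2 and G2/M cells 1 member was higher and 25 in place of 9 lower in G2/M. With borders of 9 and 22.5 UMIs these were 28, 12 and 4 lower, 7 in place of 12 members were kept, and 21 in place of 40 were higher in G2/M than in S cells. Without a gene filter 22 were higher in S cells. Per cell, 1 in place of 4 was lower in S cells, kept members were 7 by the S ratio and 2 by the S to G2 ratio, and members of the opposite rule were 6 and 43. That rule gave 1 member by the S ratio with a mitochondrial limit of 5%, without the 8% of cells with most UMIs, or with a pseudocount of 5 CPM. Thinning to 3000 UMIs gave 5 members lower in G2/M than in S to G2 cells. The cause of these changes was not tested.

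Among types, the per-cell scale gave 1 member lower in resting plasma cell-like cells and 0 in S to G2 erythroid progenitor-like cells. With at least 4 markers 3 were lower in resting monocyte progenitor-like cells and 2 in S to G2 neutrophil progenitor-like cells. Higher in S gate neutrophil progenitor-like cells were 1 without the 8% of cells with most UMIs, 7 at 3000 UMIs, 13 per cell and 9 with at least 4 markers, and leaving out 1 library gave 2 to 8, the latter without library 3. Members differing 2-fold between libraries were 7 over all cells, 4 in resting, 1 in S, 4 in S to G2 and 3 in G2/M cells. Of 1495 alternatives for 23 named members in 5 comparisons, 1425 kept their call, 35 lost and 35 gained one, and 0 reversed. No paired analysis was possible because the barcode suffixes carry no replicate numbers. For that reason the planned edgeR and DESeq2 fits of mutant against WT were not run, and 2 alternatives for S to G2 erythroid progenitor-like cells gave no value for want of cells. Low members, such as Hist1h2ac in resting monocyte progenitor-like cells, are limited by counts of a few UMIs.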
